A study of Danio rerio with 4 samples.

Results

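Ribosome footprints of zebrafish heads were compared between noc4l mutants and their siblings at 5 dpf. Ribo-seq sequences the stretches of mRNA that ribosomes shield from RNase, so a gene's footprint count reflects both its mRNA and the number of ribosomes on it. There was 1 Ribo-seq library per genotype. The members described here are the 15729 genes with at least 100 footprint counts over both libraries, of 25196 gene IDs in the footprint table and 26662 in the series. The rule that chose them uses that count alone, but it was set with earlier results of these data known. Of them 15725 remained after the 4 most abundant loci were set apart.

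The series asks what zebrafish larvae lose without Noc4l, and holds 1 RNA-seq library per genotype from the same stage and tissue beside the footprints. The fish are of the AB strain. The mutants carry a small deletion in the noc4l coding sequence made with CRISPR/Cas9, and by the study's description they had smaller heads and eyes than siblings. The sibling library is labelled WT in its genotype field and sibling in its title, and the sources used here do not give the number of heads in each library. For footprints, the study's methods describe flash-frozen heads, trypsin, cycloheximide, RNase and a sucrose gradient, whereas GEO's protocol for the same samples describes poly(A) selection.

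Noc4l is a nucleolar protein of the machinery that builds the small ribosomal subunit. In yeast, Noc4 works with Nop14 in the processing and export of pre-40S particles. Each cytoplasmic ribosome joins a small and a large subunit made of rRNA and many ribosomal proteins, and ribosome assembly is closely tied to cell growth. The head of a larva at this stage is rich in neurons, retina, lens, cartilage, muscle and skin.

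The targeted gene had 15 counts in the mutant library (exact Poisson 95% interval 8.40 to 24.7) and 93 in the sibling library (75.1 to 114), a log2 ratio of mutant over sibling of -4.01. Its RNA ratio was -3.58 in the same direction. The 4 loci set apart were zgc:158463, BX537263.3, AL935186.10 and FO704772.3, and the largest of them is annotated as an rRNA. Together they held 18.98% of the mutant and 51.07% of the sibling footprints, which left 16060630 counts of other genes in the mutant library and 5960581 in the sibling library. AL935186.10 took a larger share of the mutant library (7.31%, exact binomial interval 7.30 to 7.32) than of the sibling library (6.17%, 6.16 to 6.19). The other 3 took smaller shares of it, at 8.56% against 31.5% for zgc:158463, 2.27% against 11.4% for BX537263.3 and 0.836% against 2.01% for FO704772.3. Libraries were scaled by TMM, a factor taken from the bulk of genes, so that a gene at an equal level has 2.67 counts in the mutant library for each sibling count. With total counts in place of TMM, the median of all genes moves by 0.71 on the log2 scale, and every ratio given here is relative to the bulk of genes.

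Genes past 2-fold after adding 0.5 to each count are called higher or lower in what follows. Each genotype had 1 library, so nothing was tested, replicate error is unknown, and the exact conditional binomial 95% intervals beside ratios cover counting error only. Footprints of 298 genes (1.9% of 15725) were higher and those of 565 (3.59%) were lower in the mutant library, and the median log2 ratio was 0.02. The numbers of list members called in footprints below are to be read against these shares. The whole counting interval lay past 2-fold for 102 of the higher genes (0.649% of all) and 360 of the lower genes (2.29%). Many calls were thinly counted, since 168 of the higher and 235 of the lower genes had under 300 counts, where the median interval was 1.00 wide on the log2 scale. Among the 301 genes with 10000 counts or more, where that width was 0.11, 13 were higher and 14 lower.

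**Figure D1:**
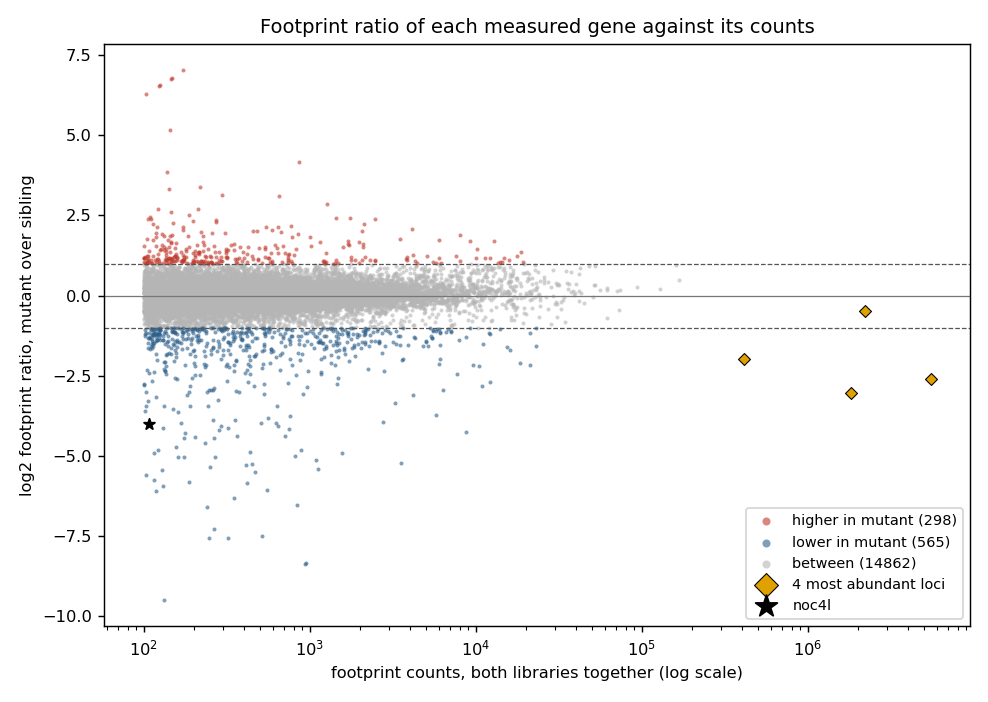
Log2 footprint ratio of mutant over sibling (vertical) against the counts of both libraries together (horizontal, log scale) for each measured gene. Dashed lines mark 2-fold, 298 genes lie above them and 565 below, and the 4 abundant loci stand to the right of all other genes.

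Among the cell type lists, those of the digestive organs had the lowest medians. All 15 measured markers of exocrine pancreas, of 34 found in the table, were lower in the mutant library, with ratios between -8.34 and -4.16 and a median of -5.41. prss59.1, a trypsin precursor, had 7.29 counts in the mutant library and 944 in the sibling library, a log2 ratio of -8.34 (-9.72 to -7.40). amy2a, an amylase, had 4 counts in the mutant library and 317 in the sibling library (-7.56). ela2, an elastase, had 7 counts in the mutant library and 508 in the sibling library (-7.50). These named enzymes of protein, starch and elastin digestion were thus each near the lower end of counting in the mutant library and well counted in the sibling library. They met the minimum of 100 counts through the sibling library alone, so the number of measured markers called lower is in part fixed by it. Over all 34 markers found, without that minimum, there were 515 counts in the mutant library and 8480 in the sibling library. The list as a whole took 0.0032% of mutant and 0.142% of sibling footprints outside the abundant loci. ctrb1, a chymotrypsin precursor, was the most abundant of them and had 66 counts in the mutant library against 1060 in the sibling library (-5.41). RNA of all 15 genes was lower too, with a median log2 ratio of -4.55. Of 10 measured endocrine pancreas markers, most of them genes of hormone processing or transcription that other endocrine and nerve cells share, 1 was higher and 0 lower. The higher one, gcga, which encodes glucagon, had 120 counts in the mutant library and 16 in the sibling library (1.45, 0.73 to 2.34).

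Of 57 measured hepatocyte markers 46 were lower and 0 higher, with a median of -2.46. fabp10a, the fatty acid-binding protein of liver, had 7 counts in the mutant library and 926 in the sibling library, a log2 ratio of -8.36 (-9.78 to -7.41). ttr, which carries thyroid hormone and retinol-binding protein, had 4 counts in the mutant library and 114 in the sibling library (-6.09). tfa, the iron carrier transferrin, had 238 counts in the mutant library and 3298 in the sibling library (-5.21). Plasma carriers were thus lower over a wide range of abundance. The largest count of the list, rbp4 for the retinol carrier, did not follow them, with 16673 counts in the mutant library and 4404 in the sibling library (0.50, 0.46 to 0.55). bhmt, a methyltransferase of homocysteine metabolism, stood between, at -0.75. In the RNA 34 of 56 hepatocyte markers were lower and 1 higher, with a median of -1.19.

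Of 24 measured markers of intestinal epithelium 13 were lower and 1 higher, with a median of -1.43. chia.2, a chitinase, had 21 counts in the mutant library and 534 in the sibling library, a log2 ratio of -6.05. rbp2b, which binds retinol in enterocytes, had 9 counts in the mutant library and 107 in the sibling library (-4.92). The list also held creb3l3l and neurod1, which are not confined to intestine, and their ratios were 0.00 and -0.28. Its 1 higher gene was gcga, at 1.45, which is also the higher gene of the endocrine pancreas list. These organs lie outside the head, and their markers together made up 0.303% of mutant and 0.942% of sibling footprints outside the abundant loci. The sources used here do not give how much tissue of these organs each head sample held. In these bulk libraries that amount, fewer cells of a type and less RNA or fewer ribosomes per cell cannot be told apart.

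**Figure D2:**
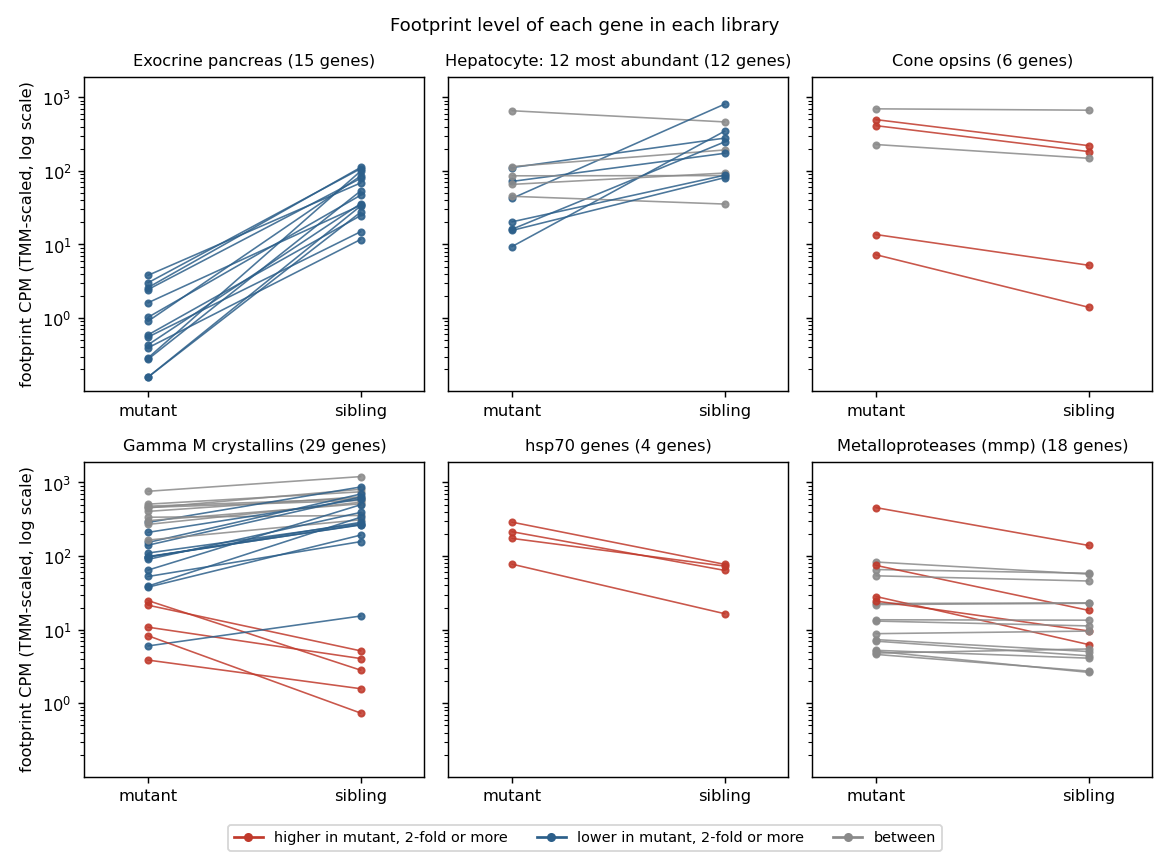
Footprint level in CPM of the TMM-scaled library (log scale) for each gene of 6 groups, with the mutant library at the left and the sibling library at the right of each panel and 1 line per gene. All 15 exocrine pancreas genes are lower in the mutant library, 4 of 6 cone opsins and all 4 hsp70 genes are higher, and gamma M crystallins include 5 higher and 14 lower genes.

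Many genes for proteins that the liver secretes into plasma were lower in footprints, and fewer of them were lower in RNA. Of 40 measured genes of complement and coagulation 23 were lower and 4 higher, with a median footprint ratio of -1.99 and a median RNA ratio of -0.10. The list shares 15 measured genes with the hepatocyte list. c3b.2, a copy of the central complement component, had 12.9 counts in the mutant library and 163 in the sibling library (-5.02), and an RNA ratio of -1.72. serpina1, the antiprotease of plasma, had 36 counts in the mutant library and 400 in the sibling library (-4.87), and an RNA ratio of -1.90. Both were lower in footprints by more than in RNA. cfd, c6 and c7a were among the 4 higher genes. c7a, a pore-forming component of complement, had 1534 counts in the mutant library and 177 in the sibling library (1.70, 1.47 to 1.93), with an RNA ratio of 2.47. c6, its partner in the pore, had 1781 counts in the mutant library and 208 in the sibling library (1.68), with an RNA ratio of 2.51.

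Of 29 measured genes of apolipoproteins and lipid transport 13 were lower and 0 higher, with a median of -0.56. apoa1b, the main protein of high-density lipoprotein, had 1074 counts in the mutant library and 7682 in the sibling library, a log2 ratio of -4.25 (-4.35 to -4.16) beside an RNA ratio of -1.52. apoa2, also of high-density lipoprotein, had 409 counts in the mutant library and 2356 in the sibling library (-3.94), with an RNA ratio of -1.09. apoda.2, a lipocalin, had 29 counts in the mutant library and 423 in the sibling library (-5.26). apoc1 and apoea, also members of the macrophage list, were lower at -3.05 and -1.71. apoeb, of macrophages and glia, lay on the other side of 0 and had 30882 counts in the mutant library and 6872 in the sibling library (0.75, 0.71 to 0.79). The receptors and transporters lrp1aa and abca1a were at 0.44 and 0.51. Of the 8 measured fatty acid-binding proteins only fabp10a and the intestinal fabp2 (185 counts in the mutant library, 333 in the sibling library, -2.26) were lower.

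Outside the lists of digestive organs, complement and apolipoproteins, 293 of 15589 measured genes were higher (1.88%) and 483 lower (3.1%). The part of the digestive markers in the results for liver-made proteins was not tested.

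Of 55 measured genes of drug metabolism 8 were lower (14.5%, against 3.59% of all genes) and 2 higher, with a median of 0.06, whereas 24 of 53 were lower in RNA and the median RNA ratio was -0.87. cyp1a, an oxidase induced through the Ahr receptor, had the most counts, 33718 in the mutant library and 7963 in the sibling library (0.67, 0.63 to 0.70), and an RNA ratio of -0.20. cyp3a65, an oxidase of the gut, had 173 counts in the mutant library and 262 in the sibling library (-2.01), and an RNA ratio of -3.58. cyp2ad2 was at -2.05 in footprints and -4.66 in RNA. gsta.2, a glutathione transferase, was at -2.28 in footprints and -1.97 in RNA. The list median does not keep its side of the all-gene median with a lower count minimum.

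Most crystallins, the proteins that fill the fibre cells of the lens, had lower footprint ratios in the mutant library, and a few had higher ones. Of 53 measured lens genes 29 were lower and 5 higher, with a median of -1.15. The list took 1.35% of mutant and 3.04% of sibling footprints outside the abundant loci. crybb1, a beta crystallin, had 10944 counts in the mutant library and 12262 in the sibling library, a log2 ratio of -1.58 (-1.62 to -1.54). All 10 measured alpha and beta crystallins lay below 0, and 9 of them were lower by 2-fold or more. crygm2d18, a gamma M crystallin, had 993 counts in the mutant library and 3207 in the sibling library (-3.11). crygm2d1, the most abundant one, had 19280 counts in the mutant library and 11437 in the sibling library (-0.66). grifin, a galectin of lens fibres, had 91 counts in the mutant library and 271 in the sibling library (-2.99). Lower genes were thus found in several crystallin classes.

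The 5 higher lens genes were all of the gamma M class and were thinly counted in the sibling library. crygm7 had 210 counts in the mutant library and 7 in the sibling library, a log2 ratio of 3.39 (2.42 to 4.82), with an RNA ratio of 3.30. crygm2c had 631 counts in the mutant library and 26.8 in the sibling library (3.11, 2.58 to 3.75), with an RNA ratio of 2.01. crygm5 had 546 counts in the mutant library and 49.0 in the sibling library (2.05), with an RNA ratio of 1.41. crygm2b and crygmxl1 were at 1.4 and 1.25, and these 2 and crygm5 were named after their values were seen. Of the 29 measured gamma M crystallins 5 were higher and 14 lower. Their copies are alike in sequence, and the sources used here do not say how reads that match several copies were treated, so values of single copies are uncertain. RNA of the lens list had a median of -0.15, with 5 of 53 genes higher and 12 lower. lenep, named after an epithelial protein of the lens and chosen after its values were seen, had 106 counts in the mutant library and 8 in the sibling library (2.23, 1.28 to 3.56).

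Photoreceptor lists had medians near that of all genes. Among 36 measured cone genes (median 0.11) there were 6 higher (16.7%, against 1.9% of all genes) and 0 lower, and 4 of the 6 were opsins. Cone opsins are the light receptors of colour vision, and zebrafish use separate genes for red, green, blue and ultraviolet light. opn1lw1, a red opsin, had 184 counts in the mutant library and 13 in the sibling library, a log2 ratio of 2.32 (1.57 to 3.29), and too few RNA counts for an RNA ratio. opn1lw2, the other red opsin, had 10449 counts in the mutant library and 1741 in the sibling library (1.17, 1.1 to 1.24), with an RNA ratio of 0.88. opn1mw1, a green opsin, had 12617 counts in the mutant library and 2096 in the sibling library (1.17, 1.11 to 1.24), with an RNA ratio of 0.35. opn1mw2, also green, had 346 counts in the mutant library and 50 in the sibling library (1.37, 0.95 to 1.85), with an RNA ratio of 2.88. The blue and ultraviolet opsins were nearer to 0. opn1sw2 had 5792 counts in the mutant library and 1411 in the sibling library (0.62, 0.54 to 0.71). opn1sw1 had 17698 counts in the mutant library and 6356 in the sibling library (0.06, 0.02 to 0.10). The intervals of the 4 red and green opsins thus overlapped each other except that of opn1lw1 with those of opn1lw2 and opn1mw1, and lay above those of opn1sw2 and opn1sw1. The red and green opsins each come as tandem copies, so reads between copies may be shared. opn1lw2 and opn1sw2 were added after their values were seen, to complete the measured family.

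The other abundant cone genes were at 0.13 for arr3a, a cone arrestin, 0.14 for gnat2, the cone transducin, and -0.12 for pde6ha, a phosphodiesterase subunit. Their RNA ratios were -0.90, -0.39 and -1.68. guca1g, an activator of guanylate cyclase, had 130 counts in the mutant library and 15 in the sibling library (1.66). Of 24 rod genes 1 was higher and 0 lower. rho, the rod opsin, had 9146 counts in the mutant library and 3357 in the sibling library (0.03, -0.03 to 0.09). rom1b, a membrane protein of outer segment discs, had 695 counts in the mutant library and 107 in the sibling library (1.28). Of 31 genes shared by photoreceptors and pigment epithelium 1 was higher and 1 lower, and of 30 genes of inner retinal neurons none passed 2-fold (median 0.12).

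Neuronal genes were close to the bulk of genes. Of 59 general neuron markers 1 was lower and 0 higher (median 0.11), and none of 55 synapse genes (median 0.12) or 39 genes of transmitters and their receptors (median 0.25) passed 2-fold. atp1a3a, the neuronal sodium pump, had 40222 counts in the mutant library and 11987 in the sibling library (0.33, 0.30 to 0.36). snap25a, of the vesicle fusion machinery, had 13642 counts in the mutant library and 4909 in the sibling library (0.06, 0.01 to 0.11). stmn1a, a microtubule regulator of dividing and young neural cells, was the 1 lower gene, with 480 counts in the mutant library and 483 in the sibling library (-1.43, -1.61 to -1.24) and an RNA ratio of -1.87. This 1 gene thus stood apart from the other general neuron markers. Of 54 markers of neural progenitors and radial glia 1 was higher and 0 lower (median -0.10). It was her4.1, a Notch target, with 366 counts in the mutant library and 56 in the sibling library (1.29, 0.89 to 1.73) and an RNA ratio of -0.94. That RNA ratio rests on 52.2 counts in the mutant library and 81.7 in the sibling library. The estimated counts of her4.1 are not whole, and how reads matching several genes were treated is not given. glula, the glutamine synthetase of glia, had 28541 counts in the mutant library and 6327 in the sibling library (0.76).

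Of 22 oligodendrocyte and myelin genes 3 were lower and 0 higher (median -0.31). All 3 encode structural proteins of the myelin sheath. plp1a had 50 counts in the mutant library and 59 in the sibling library (-1.65, -2.23 to -1.09). mpz had 199 counts in the mutant library and 215 in the sibling library (-1.53). plp1b had 173 counts in each library (-1.42). mbpb, for myelin basic protein, had 1180 counts in the mutant library and 577 in the sibling library (-0.38, -0.53 to -0.24).

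Of 77 measured fast muscle genes 13 were lower and 0 higher in footprints, whereas 12 were higher and 2 lower in RNA. The median footprint ratio was -0.44 and the median RNA ratio 0.42. actc1b, a sarcomeric actin, had 38374 counts in the mutant library and 23297 in the sibling library, a log2 ratio of -0.70 (-0.72 to -0.67) beside an RNA ratio of 0.47. atp2a1, the calcium pump of the sarcoplasmic reticulum, had 20696 counts in the mutant library and 13675 in the sibling library (-0.82), with an RNA ratio of 0.52. These 2 abundant genes thus lay below 0 in footprints and above 0 in RNA. Both titin genes, whose proteins span each sarcomere, were at about this footprint ratio, with ttn.1 at -0.89 and ttn.2 at -1.01, and had RNA ratios of 1.08 and 1.09. ttn.2 was 1 of 4 genes lower in footprints and higher in RNA by the size rule, and both titins were chosen after their values were seen.

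Myosin heavy chains of fast muscle differed among themselves. myhz2 had 7894 counts in the mutant library and 13317 in the sibling library (-2.17, -2.21 to -2.13), with an RNA ratio of -0.75. myhb had 977 counts in the mutant library and 4826 in the sibling library (-3.72, -3.82 to -3.62), with an RNA ratio of -0.92. The more abundant myhz1.1 had 55783 counts in the mutant library and 18605 in the sibling library (0.17), and myhz1.2 was at 0.22. These genes are near copies of each other, and a further ID with the symbol myhz1.1 was at -2.81, so reads between copies may be split. pvalb4, a calcium buffer of fast fibres, had 2454 counts in the mutant library and 3631 in the sibling library (-1.98), with an RNA ratio of -0.97. Of 16 slow muscle genes 6 were lower and 0 higher, with medians of -0.57 in footprints and -0.15 in RNA, and with tnni1c, a troponin, at -1.89. smyhc1, the slow myosin heavy chain, had 4335 counts in the mutant library and 1898 in the sibling library (-0.22). Of 20 heart genes 3 were lower and 0 higher, with a median of -0.41 in footprints and 0.66 in RNA. tnnc1a, the cardiac troponin C, was at -1.39 in footprints, with 66 counts in the mutant library and 65 in the sibling library, and at 0.97 in RNA.

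Of 21 erythrocyte genes 7 were lower and 0 higher (median -0.72), and RNA gave 7 lower and 1 higher of 20. slc4a1a, the anion exchanger of the red cell membrane, had 115 counts in the mutant library and 196 in the sibling library (-2.18, -2.53 to -1.85). hbbe1.3, a beta globin of embryonic red cells, had 1674 counts in the mutant library and 1841 in the sibling library (-1.55, -1.65 to -1.46). All 8 measured IDs of embryonic and larval globins lay below 0, between -2.99 and -0.82. The globins share much sequence.

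Of 21 macrophage and microglia markers 5 were lower and 0 higher (median -0.11), with 9 above 0 and 12 below 0. The most abundant members lay above 0, with apoeb at 0.75, ctsla at 0.57, ctsba at 0.11 and ms4a17a.11 at 0.86. The list took 0.36% of mutant and 0.26% of sibling footprints outside the abundant loci. lcp1, an actin bundler of white cells, had 260 counts in the mutant library and 368 in the sibling library (-1.92, -2.15 to -1.68). coro1a, a coronin of the same cells, had 110 counts in the mutant library and 146 in the sibling library (-1.82). Of 16 neutrophil genes 4 were higher and 3 lower. lyz, for lysozyme, had 17 counts in the mutant library and 114 in the sibling library (-4.13, -4.99 to -3.42). mpx, the myeloperoxidase of neutrophils, chosen after its values were seen, had 627 counts in the mutant library and 303 in the sibling library (-0.37). The higher members were led by timp2b, mmp13a and mmp9, which belong to matrix remodelling and are not made by neutrophils alone. Of the 3 lower members cpa5 is also in the exocrine pancreas list and pnp4a marks iridophores. Of 11 thymus and lymphocyte markers 2 were lower, ccr9a at -1.43 and runx3 at -1.15, and 1 was higher, cd3eap at 1.07, whose human counterpart encodes an RNA polymerase I subunit. Of 32 endothelial markers 2 were higher and 0 lower. lyve1a, of lymphatic vessels, had 776 counts in the mutant library and 77 in the sibling library (1.91, 1.58 to 2.27). plvapb, of fenestrated vessels, had 1236 counts in the mutant library and 213 in the sibling library (1.12).

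Most cartilage genes lay above the bulk of genes. Of 43 measured genes 3 were higher and 2 lower, but 32 lay above 0 and the median was 0.47, against 0.02 over all genes. RNA of the list was similar, with a median of 0.45 and 5 of 41 genes higher. col2a1a, the collagen of cartilage and the most abundant gene after the loci set apart, had 132914 counts in the mutant library and 35377 in the sibling library (0.49, 0.48 to 0.51). matn4, which links matrix proteins, had 40015 counts in the mutant library and 7844 in the sibling library (0.93). epyc, a small proteoglycan, had 5131 counts in the mutant library and 858 in the sibling library (1.16, 1.06 to 1.27). acana, for the proteoglycan aggrecan, had 2098 counts in the mutant library and 366 in the sibling library (1.1). papss2a, which makes the sulfate donor for these proteoglycans, was 1 of the 2 lower genes, with 1008 counts in the mutant library and 768 in the sibling library (-1.02). Matrix proteins and this enzyme thus stood on opposite sides.

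Genes of bone-forming cells lay the other way. Of 23 measured genes 4 were lower and 0 higher (median -0.31). scpp1, a secreted phosphoprotein of mineralising tissue, had 48 counts in the mutant library and 72 in the sibling library (-2.00). phospho1, which frees phosphate for mineral, had 56 counts in the mutant library and 47 in the sibling library (-1.17). col1a1a, the main collagen of bone and skin, had 21643 counts in the mutant library and 10810 in the sibling library (-0.41, -0.45 to -0.38). Of 41 genes of mesenchyme and fibroblasts 3 were higher and 1 lower (median 0.31). fn1b, a fibronectin, had 8929 counts in the mutant library and 1224 in the sibling library (1.45, 1.36 to 1.54), with an RNA ratio of 2.15. Of 45 collagens 3 were lower and 0 higher.

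Of 62 keratinocyte genes 11 were lower and 0 higher (median -0.23). krt4, a keratin of the outer skin layer and the most abundant of them, had 48568 counts in the mutant library and 24831 in the sibling library (-0.45). krt15 had 1439 counts in the mutant library and 2157 in the sibling library (-2.00, -2.10 to -1.90). Of 19 ionocyte genes 2 were lower, and foxi3b, a transcription factor of these cells, had 98 counts in the mutant library and 95 in the sibling library (-1.37). None of 19 melanophore genes passed 2-fold, and tyrp1b, of melanin synthesis, was at 0.60. Of 29 genes of iridophores and xanthophores 3 were lower and 1 higher. xdh, an enzyme of purine and pteridine pigments, had 160 counts in the mutant library and 173 in the sibling library (-1.53). pnp4a, a marker of iridophores, had 924 counts in the mutant library and 786 in the sibling library (-1.18).

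Of 24 pituitary and neurosecretory genes 2 were higher, 0 lower and 22 above 0, with a median of 0.48. prl, for prolactin, had 311 counts in the mutant library and 38 in the sibling library (1.6, 1.13 to 2.14), with an RNA ratio of 1.92. pomca, the precursor of melanotropin and corticotropin, had 669 counts in the mutant library and 129 in the sibling library (0.95). gh1, growth hormone, had 1130 counts in the mutant library and 258 in the sibling library (0.71). These 3 hormones of different pituitary cells lay on the same side. Their RNA ratios also lay above 0, at 1.31 for pomca and 0.66 for gh1. The RNA median of the list did not follow, at -0.10 over 16 genes, but 3 of these were higher and 0 lower. Of 24 genes of hair cells and inner ear 1 was higher and 1 lower, of 17 of notochord and swim bladder 2 were higher and 1 lower, and of 42 of clock and pineal 1 was higher and 0 lower.

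**Figure D3:**
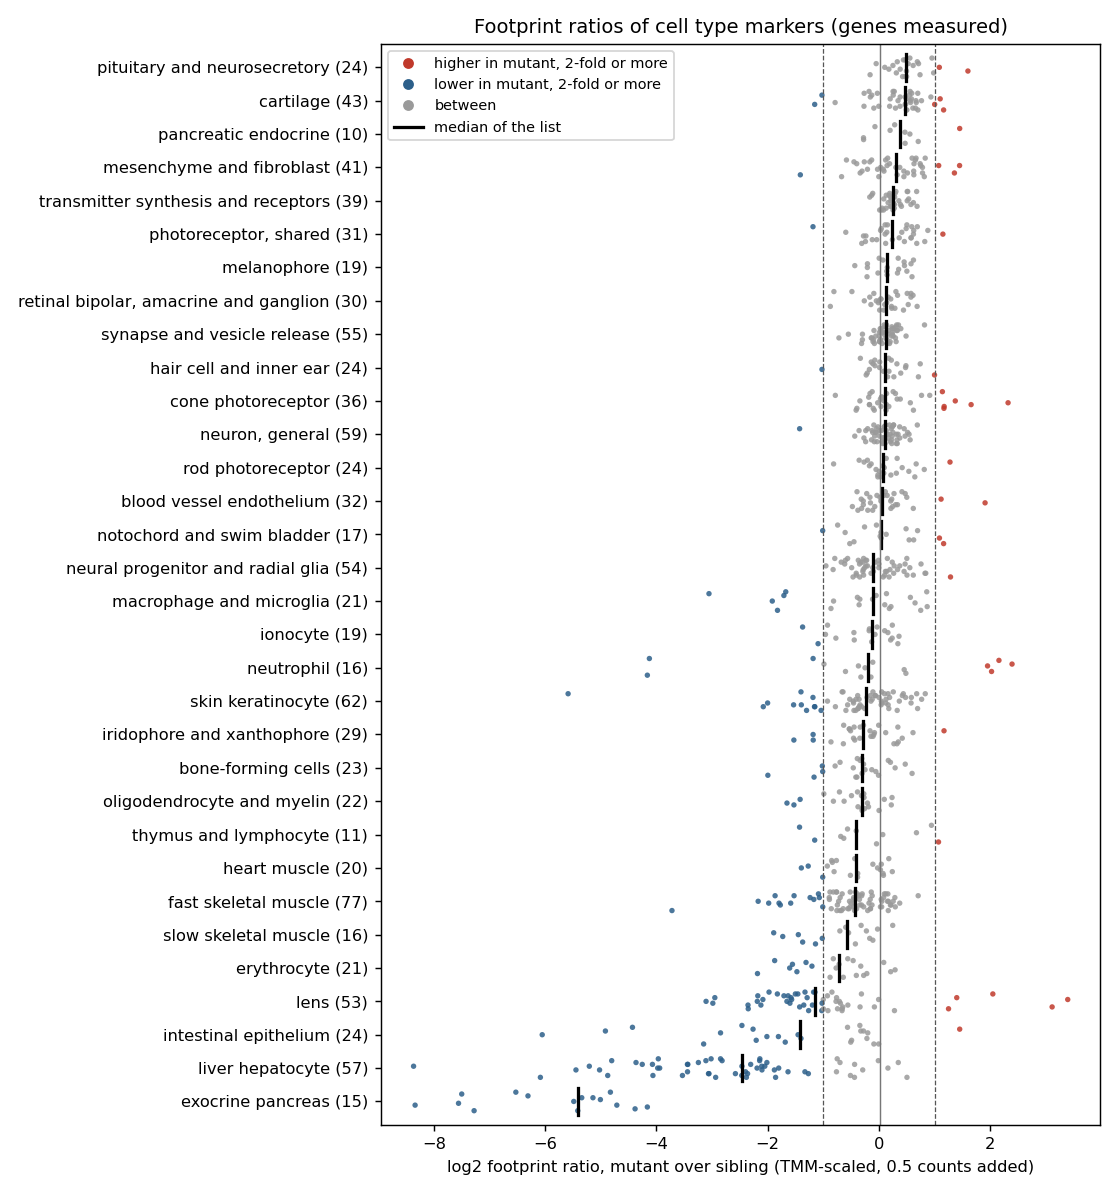
Log2 footprint ratio of mutant over sibling (horizontal) for each measured gene of the cell type lists, ordered by list median (black bars), with the number of measured genes in brackets and 2-fold marked by dashed lines. Exocrine pancreas, hepatocyte, intestine and lens lists lie lowest (medians -5.41, -2.46, -1.43 and -1.15), and pituitary and cartilage lists highest (0.48 and 0.47).

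Ribosomal proteins had more footprints in the mutant library relative to the bulk of genes. Of 37 measured genes of the small subunit 11 were higher and 2 lower, 35 lay above 0 and the median was 0.86. Of 48 of the large subunit 4 were higher and 2 lower, 44 lay above 0 and the median was 0.75. Their RNA went the other way, with medians of -0.41 and -0.54. rps27a, which is made fused to ubiquitin, had 15316 counts in the mutant library and 2435 in the sibling library (1.24, 1.18 to 1.3), with an RNA ratio of -0.35. rps7 had 9744 counts in the mutant library and 1616 in the sibling library (1.18), with an RNA ratio of -0.36. rpl11, which binds Mdm2 when it is not in ribosomes, had 16474 counts in the mutant library and 2396 in the sibling library (1.37, 1.3 to 1.43), with an RNA ratio of -0.17. These 3 genes were past 2-fold in footprints while their RNA was slightly lower. rps27l, a p53 target in mammals as well as a ribosomal protein, stood apart, with 1642 counts in the mutant library and 114 in the sibling library (2.43) and an RNA ratio of 1.93.

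The proteins differed among themselves. rpsa and rps2, of the small subunit, were lower at -1.12 and -1.04, with 3930 and 3300 counts in the mutant library against 3202 and 2543 in the sibling library. rpl22l1 and rplp2, of the large subunit, were lower at -1.21 and -1.16. rplp0, of the ribosomal stalk, was at -0.22 and rpl3 at 0.11. rpl19, the most abundant of the large subunit, had 23975 counts in the mutant library and 5191 in the sibling library (0.79, 0.75 to 0.83). The members named with lower or central values, rplp0, rpl3, rpsa and rps2, were chosen after their values were seen. Ribosomal protein genes are short. Relative length was inferred as a gene's mutant count over its deposited mutant TPM, not taken from an annotation. With measured genes put in 10 bins by it, the shortest bin without its 55 ribosomal protein genes had a median of 0.07. Without them that bin had 27 higher and 132 lower genes, and the longest bin had a median of -0.11. The part of length in the ribosomal protein ratios was not tested. Processed copies of these genes may share their reads.

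The 13 proteins encoded in the mitochondrial genome, made by mitochondrial ribosomes, also had more footprints. All 13 lay above 0, between 0.30 and 0.96, with a median of 0.70, and none passed 2-fold. mt-co1, of the terminal oxidase, had 134384 counts in the mutant library and 25850 in the sibling library (0.96, 0.94 to 0.98), with an RNA ratio of 0.34. mt-co2 and mt-co3, of the same complex, were at 0.91 and 0.87, with RNA ratios of -0.15 and -0.10. The nuclear-encoded genes of oxidative phosphorylation did not share this, with a median of 0.05, 0 of 84 higher and 1 lower. atp5f1b, of the ATP synthase, had 22764 counts in the mutant library and 9866 in the sibling library (-0.21). Mitochondrial ribosomal proteins had a median of 0.18, with 0 of 74 past 2-fold.

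Other genes of the translation machinery lay slightly above the bulk. Medians were 0.26 for 21 elongation factors, 0.26 for 57 initiation factors and 0.29 for 35 aminoacyl-tRNA synthetases, and no gene of the 3 lists passed 2-fold. eef1a1l1, which brings tRNA to the ribosome, had 71195 counts in the mutant library and 21965 in the sibling library (0.28, 0.26 to 0.30), with an RNA ratio of -0.57. eprs1, a tRNA synthetase, had 4388 counts in the mutant library and 1286 in the sibling library (0.35), with an RNA ratio of 1.28. The 2 families thus had like footprint ratios and RNA ratios of opposite sign, with RNA medians of -0.34 and 0.48.

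Of 65 genes of the small-subunit processome and 40S assembly 1 was lower, noc4l itself, and 1 higher, and the median was 0.26. abt1, an assembly factor, had 311 counts in the mutant library and 52 in the sibling library (1.15, 0.74 to 1.62). riok3, a kinase of late 40S maturation, had 3096 counts in the mutant library and 614 in the sibling library (0.92), with an RNA ratio of 1.14. fbl, the methyltransferase of box C/D particles, was at 0.09. None of 64 genes of 60S assembly passed 2-fold (median 0.18), and of 19 genes of RNA polymerase I and its factors 1 was higher (median 0.42). Median RNA ratios of these 3 lists were 0.46, 0.28 and 0.11.

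Most genes of the DNA replication and mitosis lists had fewer footprints in the mutant library relative to the bulk of genes. Of 61 genes of DNA replication 16 were lower and 0 higher, 56 lay below 0 and the median was -0.74. pcna, the sliding clamp of the replication fork, had 2928 counts in the mutant library and 2046 in the sibling library (-0.90, -0.98 to -0.82). mcm3, of the replicative helicase, had 1659 counts in the mutant library and 1322 in the sibling library (-1.09). rrm2, which supplies deoxynucleotides, had 532 counts in the mutant library and 884 in the sibling library (-2.15, -2.31 to -1.99), and a further ID of that symbol was at -2.61. Clamp, helicase and nucleotide supply were thus all on the same side. Of 62 genes of mitosis 22 were lower and 1 higher, with a median of -0.83 against -0.29 in RNA. top2a, which untangles chromosomes, had 888 counts in the mutant library and 960 in the sibling library (-1.53, -1.66 to -1.4). aspm, of the spindle poles, had 136 counts in the mutant library and 166 in the sibling library (-1.70), with an RNA ratio of -0.37. kif20a, a kinesin of cytokinesis, had 132 counts in the mutant library and 151 in the sibling library (-1.61), with an RNA ratio of 0.08. Pathways of the deposited annotation lay nearer to the bulk in footprints. DNA replication had 4 lower and 0 higher of 36 genes (median -0.50), and cell cycle 14 lower and 2 higher of 134 (median -0.12). In RNA 5 of 60 genes of the replication list were lower and 0 higher, and 2 of 62 of the mitosis list were lower and 1 higher. Over all genes measured in both, 3.64% were lower and 2.55% higher in RNA.

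Most histone genes of the list lay below 0 in footprints. Of 16 histone genes of the list 5 were lower and 0 higher (median -0.76), and 4 of the 5 lower ones carry symbols of replication histones, the fifth being h2ax. hist1h2a3, an H2A, had 945 counts in the mutant library and 1005 in the sibling library (-1.50, -1.63 to -1.38). h3f3d, a replacement H3 made in all cells, had 11623 counts in the mutant library and 5216 in the sibling library (-0.26). The file holds many more IDs under the symbols of replication histones, a set looked at after these values were seen. Of its 48 measured IDs 35 were lower, all lay between -2.88 and -0.46, and none reached 100 counts in the RNA libraries, which were made from poly(A) RNA. These copies are alike in sequence and may share reads.

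All 4 measured hsp70 genes, the inducible heat shock chaperones, were higher. hsp70l had 7339 counts in the mutant library and 735 in the sibling library, a log2 ratio of 1.90 (1.79 to 2.01). hsp70.1 had 1970 counts in the mutant library and 157 in the sibling library (2.23, 2.00 to 2.48). hsp70.2 and hsp70.3 were at 1.74 and 1.25, and RNA of all 4 was higher. The 4 genes are near copies, and hsp70.3 was added after its values were seen. The constitutive chaperones were near the bulk, with hspa8 at 0.14 and hsp90ab1 at 0.08. serpinh1b, the collagen chaperone, had 274 counts in the mutant library and 40 in the sibling library (1.34). In all 6 of 60 chaperones were higher and 0 lower. None of 52 genes of the integrated stress and unfolded protein responses passed 2-fold, and hspa5, the marker chaperone of the endoplasmic reticulum, was at 0.12. Of 53 genes of p53 and its targets 6 were higher and 1 lower, with ccng1 (1355 counts in the mutant library, 94 in the sibling library) at 2.43 and sesn1, a stress-induced target, at 0.37. The p53 signaling pathway annotated in the deposited table counted otherwise, with 5 higher and 8 lower of 72 genes (median 0.14).

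Inflammatory signals included 6 higher genes and 0 lower among 31 measured (median 0.35). lepa, a leptin, had 142 counts in the mutant library and 1 in the sibling library, a log2 ratio of 5.15 with an interval of 3.23 to 11.05. isg15, a ubiquitin-like protein of the interferon response, had 176 counts in the mutant library and 11 in the sibling library (2.52, 1.71 to 3.61). cxcl18b, a chemokine, had 308 counts in the mutant library and 43 in the sibling library (1.41). Of 25 matrix metalloproteases and their inhibitors 6 were higher and 0 lower (median 0.55). mmp9, a gelatinase, had 1895 counts in the mutant library and 174 in the sibling library (2.03, 1.8 to 2.26). mmp13a, a collagenase, had 716 counts in the mutant library and 60 in the sibling library (2.16), and a further ID of that symbol was at 1.34. mmp2, the most abundant of the list, had 11560 counts in the mutant library and 1327 in the sibling library (1.71, 1.62 to 1.79). timp2b, an inhibitor of these enzymes, had 2320 counts in the mutant library and 165 in the sibling library (2.39). Proteases and inhibitor were thus higher together, and their RNA ratios, between 1.68 for mmp2 and 3.46 for timp2b, were higher as well.

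Of 39 glycolysis genes 4 were lower (10.3%) and 0 higher (median 0.17). The 4 include pklr, the pyruvate kinase of liver and red cells, with 36 counts in the mutant library and 249 in the sibling library (-4.19). gapdhs and eno1a, the abundant forms in these heads, were at 0.33 and 0.39. Of 62 genes of fatty acid oxidation and PPAR signalling 5 were lower (8.06%) and 1 higher (median -0.20), with acadvl, an abundant enzyme of this route, at -0.25, beside an RNA median of -0.48 with 14 of 60 lower. plin6, a lipid droplet protein of pigment cells, was the higher one, with 345 counts in the mutant library and 57 in the sibling library (1.17). Of 26 cholesterol synthesis genes 1 was lower. No gene of the proteasome (48), lysosome (50) or splicing (82) lists passed 2-fold, with medians of 0.05, 0.17 and -0.13.

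**Figure D4:**
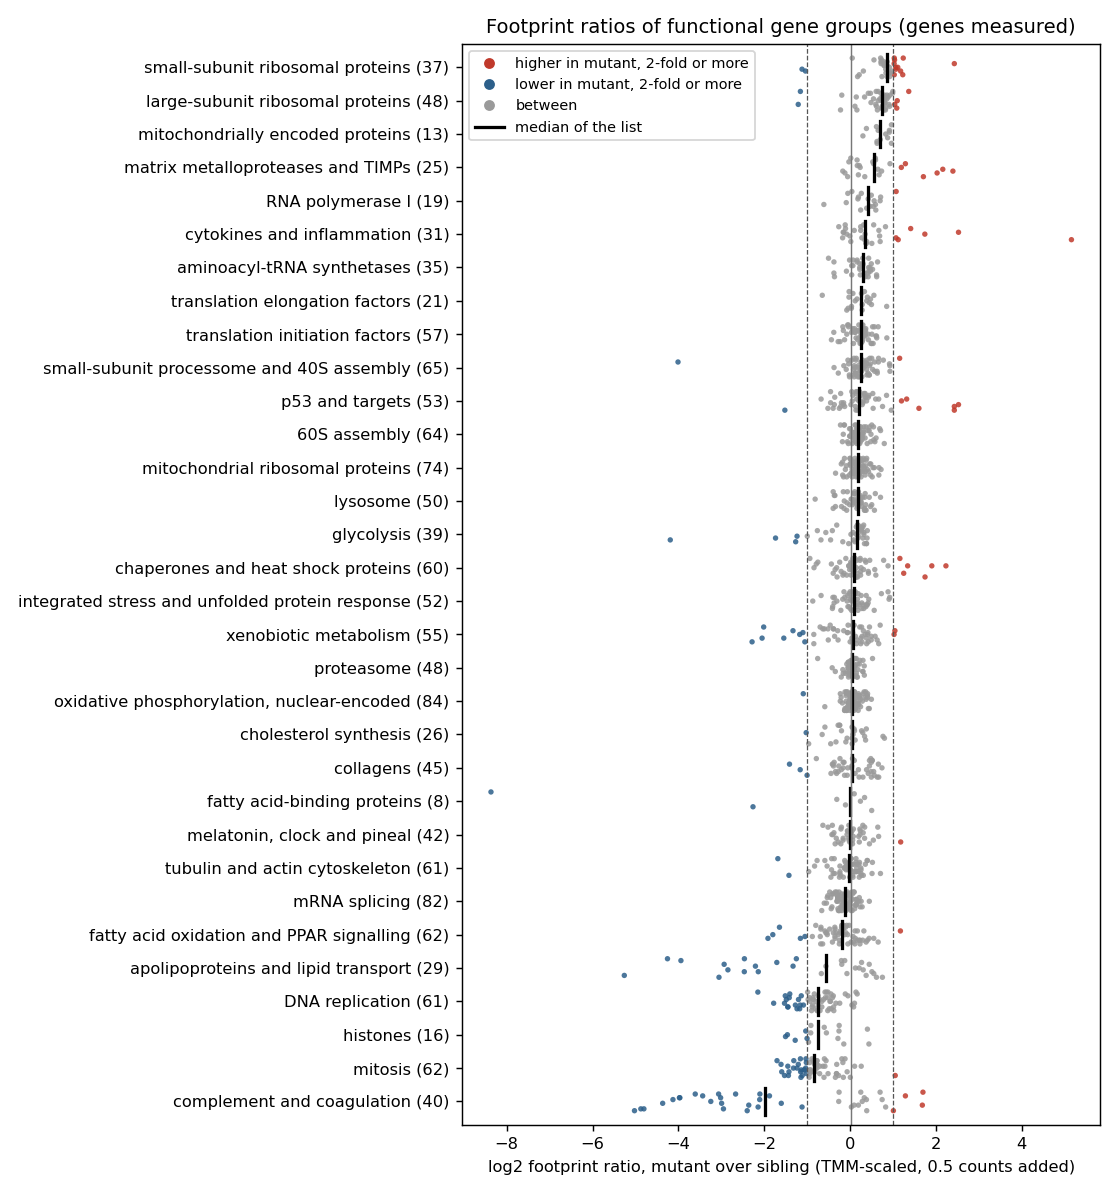
Log2 footprint ratio of mutant over sibling (horizontal) for each measured gene of the function lists, ordered by list median (black bars), with the number of measured genes in brackets and 2-fold marked by dashed lines. Ribosomal proteins lie highest (medians 0.86 and 0.75), followed by the 13 mitochondrially encoded proteins (0.70), and complement and coagulation lowest (-1.99), with mitosis and DNA replication at -0.83 and -0.74.

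Among genes with a gene name and at least 5 CPM in the higher library, the 10 lowest were crp3, fabp10a, prss59.1, amy2a, C20H6orf58, ela2, ela2l, gc, cela1.6 and ela3l. crp3, a C-reactive protein, had 0 counts in the mutant library and 133 in the sibling library, and no ratio is given for it. gc, the vitamin D carrier of plasma, had 6 counts in the mutant library and 235 in the sibling library (-6.60). All but crp3, C20H6orf58 and gc were members of the pancreas or hepatocyte lists. The 10 highest were lepa, bmb, crygm7, znf1116, ms4a17a.12, crygm2c, cldn7a, cxcl18a.1, optc and isg15. bmb, brambleberry, known for nuclear membrane fusion in the early embryo, had 843 counts in the mutant library and 17 in the sibling library (4.17, 3.53 to 5.00), with an RNA ratio of 4.81. cldn7a, a claudin of tight junctions, had 1216 counts in the mutant library and 63 in the sibling library (2.84, 2.49 to 3.24), with an RNA ratio of 1.4. ms4a17a.12 had 283 counts in the mutant library and 11.64 in the sibling library (3.13), and of 7 measured ms4a17a genes 4 were higher and 0 lower. The ratios of lepa and bmb rest on few sibling counts, and that of cldn7a on more.

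RNA of the same genes is a readout that the count rule for members did not use. That rule and the lists were nonetheless set with earlier results of these data known. Of 252 genes with higher footprints that were measured in RNA, 104 were also higher in RNA (41.3%), 147 lay between and 1 was lower. Of 444 with lower footprints 202 were lower in RNA (45.5%), 238 lay between and 4 were higher. Over all 14454 genes measured in both, 2.55% were higher and 3.64% lower in RNA. Pearson's r of the log2 ratios across these genes was 0.56 and Spearman's rho 0.32, as a description, since genes of the same libraries are not replicates. The 4 genes lower in footprints and higher in RNA were ttn.2, cp, tgm2a and METTL21EP. Among them only cp had its whole footprint interval past 2-fold (-2.08 to -1.63). cp, the copper oxidase ceruloplasmin of plasma, had 282 footprint counts in the mutant library and 383 in the sibling library (-1.86), and 3002 RNA counts in the mutant library and 1031 in the sibling library (1.25). The 1 gene the other way was znf1048, at 1.44 in footprints and -1.42 in RNA, on 15.0 footprint counts in the sibling library.

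By list, the medians of footprints and RNA were farthest apart for complement and coagulation (-1.99 and -0.10), large-subunit ribosomal proteins (0.75 and -0.54), small-subunit ribosomal proteins (0.86 and -0.41) and hepatocytes (-2.46 and -1.19 over all members measured in each). Heart, lens, mitochondrially encoded proteins, drug metabolism and fast muscle followed. The 3 fibrinogen genes, which encode the clot protein made by liver, are an instance, chosen after their values were seen. fga had 221 counts in the mutant library and 357 in the sibling library (-2.11) with an RNA ratio of 0.44. fgb was at -2.40 in footprints and 0.29 in RNA, and fgg at -1.88 and 0.06. The order of these gaps was not tested, since each genotype has 1 library of each kind.

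**Figure D5:**
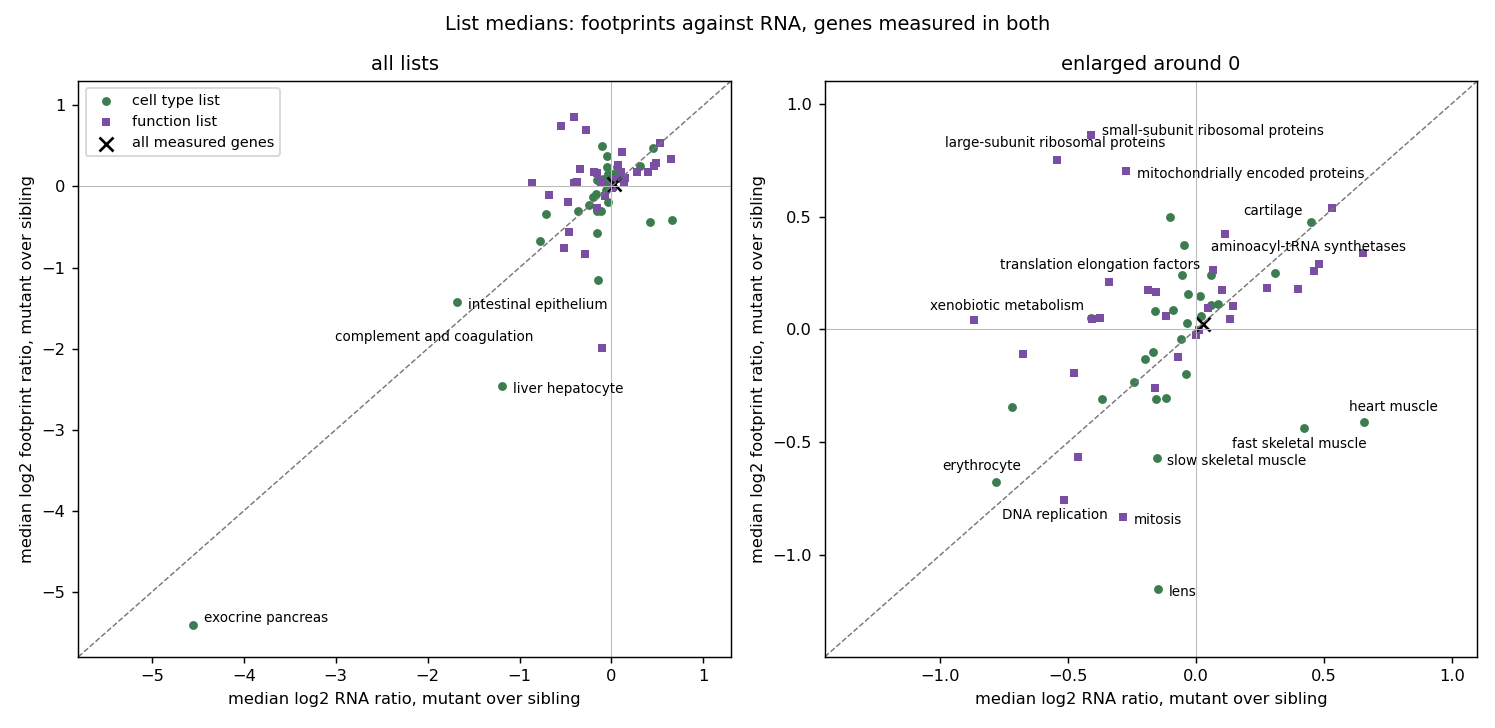
Median log2 footprint ratio (vertical) against median log2 RNA ratio (horizontal), mutant over sibling, for each list over the genes measured in both, for all lists at the left and enlarged around 0 at the right. The dashed line marks equal medians, with ribosomal proteins above it and muscle, lens and complement lists below it.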

How the data were processed

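The Ribo-seq table holds 1 mutant and 1 sibling library. HISAT2 and featureCounts are named in the submitters' processing notes. Versions, genome build, annotation and how rRNA or multiply matching reads were handled: not given in the sources used here. Per gene, the authors deposited estimated counts, which need not be whole, beside TPM and FPKM values. Estimated counts were used, and the deposited TPM served as an alternative and to infer relative length. FPKM and the authors' own fold change, p-value and FDR columns were not used.

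The 1 row without a gene ID (0.000746% of mutant and 0.00303% of sibling counts) was left out. Library totals were 19823848 and 12181046 counts, and TMM factors from edgeR 4.0.16 in R 4.3.3 were 1.28 and 0.781 for the mutant and sibling libraries. A gene was measured at 100 or more counts summed over the libraries, with 0.5 added to counts before ratios. The same rules were applied to the RNA libraries, made from poly(A) RNA. Ratios, intervals and figures were made with scipy 1.17.1, pandas 2.3.3, numpy 2.4.6 and matplotlib 3.10.9 (Python 3.11.15), and the steps were tested on simulated data.

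Genes were described by 64 lists, 32 of cell types and 32 of functions, with 3180 entries, of which 2935 were found and 2488 measured, counting a gene once per list. Where IDs share a symbol, the ID with most counts was used. The members and lists were chosen with earlier results of these data known. Groups defined by symbol alone (crystallins, opsins, globins, hsp70, replication histones, ms4a17a, adrenomedullins) were chosen after their values were seen. Named genes were noc4l, the 4 abundant loci, the 10 largest ratios in each direction with a gene name and at least 5 CPM in the higher library, and up to 4 most abundant and 4 most different members of each list. Alternatives were other scalings (total counts, DESeq2 1.42.0 size factors, without the 4 loci), minimum counts, added counts, deposited TPM and a rule on the whole counting interval. Protein and promoter sequences were not used here.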

Additional observations from a re-analysis of the deposited data

How the results depend on the processing

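No paired analysis was possible because each genotype has 1 library, and no library could be left out. The counts of 298 higher and 565 lower genes became 283 and 586 with total counts without the 4 loci, 299 and 565 with DESeq2 size factors, 298 and 565 with TMM without the 4 loci, and 281 and 568 with 1 added. They were 3474 and 197 with total counts, 953 and 1542 with a minimum of 10 counts, 1366 and 2422 with no minimum, 7009 and 121 with deposited TPM and 1 added, and 102 and 360 where the whole interval had to pass 2-fold. Higher genes made up 34.5% of calls, against 94.6% with total counts and 98.3% with TPM. Relative to the median of all genes, 277 were higher and 595 lower under TMM and total counts alike. A change of scaling shifts every log2 ratio by the same amount, so these counts could not differ. With total counts 18 of 64 list medians changed sign. That 0 changed side of the all-gene median was fixed in the same way. Blood vessel endothelium and xenobiotic metabolism changed that side with a minimum of 10 counts or none, and 6 lists did so with TPM. With TPM, where the median of all genes was 0.95, 12 named genes changed sign: smyhc2 to 0.060, myh7l to 0.260, cmlc1 to 0.068, papss2a to 0.055, ifitm5 to 0.061, entpd5a to 0.060, slc17a8 to 0.039, rpl22l1 to 0.266, hist1h2a1 to 0.047, lbr to 0.055, col4a3 to 0.116 and col28a1a to 0.077. Genes with under 300 counts had a median interval 1.00 wide (log2), which limits their calls.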

Other observations

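Values were computed for 34 pathways of the deposited annotation, to be read against 1.9% higher and 3.59% lower among all genes. Only some are given here, and no rule set beforehand chose them. Of 75 measured genes of PPAR signaling 6 were lower (8%) and 1 higher (1.33%), with a median of -0.09. Of 1408 genes of metabolic pathways 78 were lower (5.54%) and 14 higher (0.994%), with a median of 0.01. Of 90 measured genes of cytokine-cytokine receptor interaction 9 were higher (10%) and 2 lower (2.22%). Their median was 0.24 on the log2 scale. Of 58 genes of pyrimidine metabolism 12 were lower (20.7%) and 0 higher, although the median was 0.02. Of 102 genes of ECM-receptor interaction 3 were higher (2.94%) and 4 lower (3.92%), so both shares were close to those of all genes. The medians of this pathway were 0.29 in footprints and 0.49 in RNA. Of 134 genes of purine metabolism 12 were lower (8.96%) and 1 higher (0.746%). Both measured adrenomedullin genes, a group defined by symbol alone, were higher, at 1.51 and 2.02 in footprints. They encode peptides that act on vessels. Of 298 higher genes 223 were in none of the lists, and 69 carry clone names in place of gene names. Of 565 lower genes 330 were in none of the lists, and 112 carry clone names.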
